A study of Mus musculus with 23 samples.

Results

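The interferon-inducible GTPases described here were 10 genes chosen by name from 2 families, among 56748 genes in the count table. They were the immunity-related GTPases Tgtp1, Tgtp2, Irgm1, Irgm2, Igtp and Iigp1, and the guanylate-binding proteins Gbp2, Gbp3, Gbp5 and Gbp7. Each symbol occurred in 1 row, and all 10 rows passed the filter on low counts in both routes of drug delivery. The family was selected on the level of Tgtp1 in 1 contrast, NCTD_IP against CONTROL_IP, so every contrast with CONTROL_IP is given below as a description without a test.

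The RNA came from 23 tumors grown under the skin of DBA/2J mice aged 6 to 8 weeks from B16-F1 cells, a melanoma line derived from C57BL/6 mice. Mice received pentoxifylline at 60 mg/kg (PTX), norcantharidin at 3 mg/kg (NCTD) or both at those doses (MIX). Intraperitoneal treatment (IP) had saline as its control and 2 tumors in each of the groups CONTROL_IP, PTX_IP, NCTD_IP and MIX_IP. Intratumoral treatment (IT) had DMSO as its control and 4 tumors in CONTROL_IT, 3 in PTX_IT, 4 in NCTD_IT and 4 in MIX_IT. Route was also the labelled batch, so route, batch and vehicle cannot be told apart. Comparisons were made within a route. Host and tumor cells were of different strains, and the reads were placed on the C57BL/6 reference genome. Tumors are named by group and by the number in their label.

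Libraries of the 3′ ends of mRNA held 2861578 to 6702374 counts per tumor. Values are CPM (counts scaled to a common library total) adjusted by the trimmed mean of M values, and the levels of different genes are not ranked against each other. Summed markers of melanoma cells (7 genes) lay between 15360 and 36950 CPM in all 23 tumors. In bulk tumor RNA, fewer cells of a type and less RNA per cell cannot be told apart. Xist, transcribed in female cells, was at 1.27 to 13.4 CPM in the 7 tumors of PTX_IT and NCTD_IT and at 0 to 0.567 CPM in the 8 tumors of CONTROL_IT and MIX_IT. Among IP tumors, CONTROL_IP tumor 2 alone had Xist, at 8.20 CPM. Ddx3y, a gene of the Y chromosome, ran the opposite way, at 0 to 0.295 CPM in PTX_IT and NCTD_IT and at 1.00 to 15.6 CPM in CONTROL_IT and MIX_IT. What goes with these sex-linked genes and what goes with the drug cannot be told apart in IT comparisons of these pairs of groups. CONTROL_IT tumor 9 and MIX_IT tumor 23 stood apart as low in nearly all members and PTX_IP tumor 4 as the lowest IP tumor for 9 of 10.

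Interferon gamma, made mainly by T and NK cells, acts through its receptor on promoters with gamma-activated sequence (GAS) elements and induces the transcription factor IRF1. IRF1 binds interferon-stimulated response elements (ISRE), and the genes of both GTPase families are classical targets of interferon gamma. Igtp, Irgm1 and Irgm2 encode regulatory GTPases that keep the effectors inactive on the membranes of the cell itself. Iigp1, Tgtp1 and Tgtp2 encode effector GTPases that load onto and disrupt the vacuoles of intracellular parasites. The guanylate-binding proteins are larger GTPases that assemble on such vacuoles and on bacteria.

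Promoter sequences of 6 members are shown to set those with a GAS element beside those without one. RefSeq promoters (table of build GRCm38.p6, 250 bases before to 50 after the start) were found for 9 of the 10 members and matched GRCm39 exactly, each at 1 place. Searched on both strands, the ISRE core was GAAANNGAAA and the GAS element was TTCNNNGAA. Both are in capitals, on whichever strand they matched.
Tgtp1, chr11:48883024-48883323 minus strand in GRCm39, an effector: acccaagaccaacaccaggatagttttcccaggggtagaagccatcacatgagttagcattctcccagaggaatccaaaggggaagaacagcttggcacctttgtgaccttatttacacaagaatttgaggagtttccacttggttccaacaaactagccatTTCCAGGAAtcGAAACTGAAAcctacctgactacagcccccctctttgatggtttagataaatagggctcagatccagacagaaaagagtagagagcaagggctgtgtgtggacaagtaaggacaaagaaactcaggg
Tgtp2, chr11:48954990-48955289 minus strand in GRCm39, an effector: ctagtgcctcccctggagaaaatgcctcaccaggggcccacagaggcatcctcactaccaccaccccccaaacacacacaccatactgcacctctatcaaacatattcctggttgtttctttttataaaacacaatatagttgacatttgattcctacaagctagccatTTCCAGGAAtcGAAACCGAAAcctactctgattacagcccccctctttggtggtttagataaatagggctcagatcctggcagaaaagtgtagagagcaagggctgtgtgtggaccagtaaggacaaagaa
Igtp, chr11:58090132-58090431 plus strand in GRCm39, a regulator: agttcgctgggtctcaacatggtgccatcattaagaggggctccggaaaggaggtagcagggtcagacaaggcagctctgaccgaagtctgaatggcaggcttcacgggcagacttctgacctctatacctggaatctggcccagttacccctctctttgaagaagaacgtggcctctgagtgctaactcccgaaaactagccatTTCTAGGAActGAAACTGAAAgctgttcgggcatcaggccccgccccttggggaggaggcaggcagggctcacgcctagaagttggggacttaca
Irgm2, chr11:58105553-58105852 plus strand in GRCm39, a regulator: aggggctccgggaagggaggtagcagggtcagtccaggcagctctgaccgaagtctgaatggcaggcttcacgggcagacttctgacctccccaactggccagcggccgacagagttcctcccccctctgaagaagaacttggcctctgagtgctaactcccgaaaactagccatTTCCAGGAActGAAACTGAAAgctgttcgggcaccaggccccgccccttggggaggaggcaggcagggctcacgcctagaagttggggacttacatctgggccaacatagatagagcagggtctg
Irgm1, chr11:48762198-48762497 minus strand in GRCm39, a regulator with 2 ISRE cores that overlap and no GAS match: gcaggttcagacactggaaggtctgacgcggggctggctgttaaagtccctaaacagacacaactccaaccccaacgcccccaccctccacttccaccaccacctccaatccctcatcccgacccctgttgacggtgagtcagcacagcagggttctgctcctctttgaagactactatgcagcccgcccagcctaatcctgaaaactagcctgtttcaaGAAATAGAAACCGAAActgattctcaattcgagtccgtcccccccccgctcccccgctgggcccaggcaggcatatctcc
Gbp2, chr3:142326174-142326473 plus strand in GRCm39, a guanylate-binding protein with an ISRE core read on the opposite strand: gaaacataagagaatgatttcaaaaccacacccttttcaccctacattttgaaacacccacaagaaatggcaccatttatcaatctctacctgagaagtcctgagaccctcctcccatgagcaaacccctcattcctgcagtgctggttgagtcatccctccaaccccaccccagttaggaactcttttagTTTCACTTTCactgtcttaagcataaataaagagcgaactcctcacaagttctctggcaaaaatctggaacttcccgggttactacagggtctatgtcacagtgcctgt

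An ISRE core was found in 9 of 9 members with a promoter entry, and in 3.44% of all 32851 promoters of the same length. These members had 10 promoter entries, and the second entry of Gbp3 held neither motif. Members are counted by gene and the share of all promoters by entry. A GAS element was found in 6 of 9 members (Tgtp1, Tgtp2, Igtp, Irgm2, Gbp5 and Gbp7) and in 8.3% of all promoters. In Tgtp1, Tgtp2, Igtp and Irgm2 the GAS element stood 2 bases before the ISRE core, as the capitals above show. That arrangement occurred in 5 of the 32851 promoters (0.0152%), the fifth being Gm12185, whose gene overlaps Tgtp1 on the same strand. A match of letters is a description and not evidence that a factor was bound in these tumors.

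**Figure D1:**
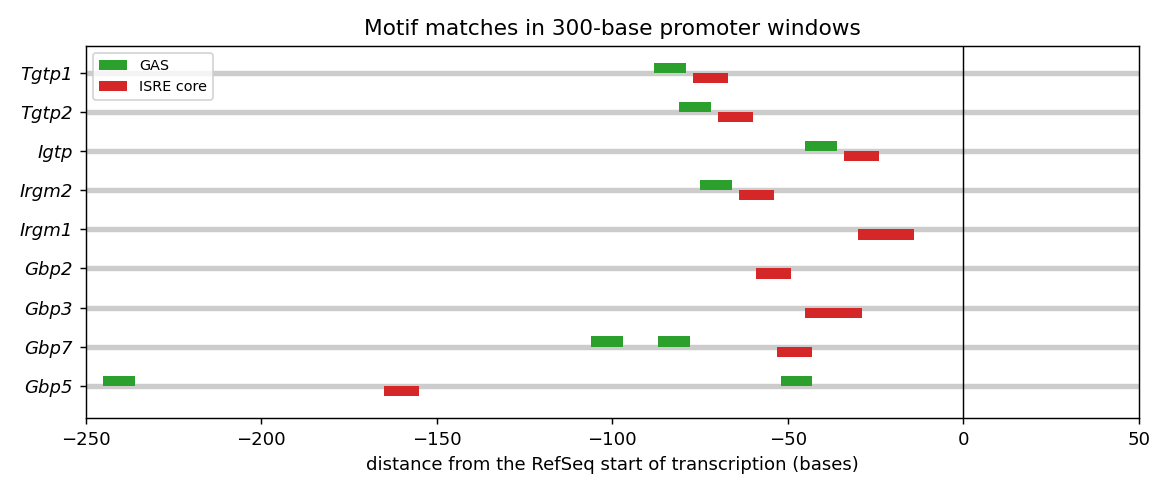
Position of GAS (green) and ISRE core (red) matches in the promoter window of each of 9 members, with distance from the RefSeq start in bases on the x axis. In Tgtp1, Tgtp2, Igtp and Irgm2 a green block stands directly before a red block, and in Tgtp1 they lie at -88 to -80 and -77 to -68.

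Tumors of the same group differed widely in these genes, and the members rose and fell together from tumor to tumor. Igtp ranged from 66.5 CPM in MIX_IT tumor 23 to 1106 CPM in CONTROL_IT tumor 10. Igtp, Irgm2, Iigp1, Gbp2, Gbp3 and Gbp7, here written as the 6, moved most closely together, and they were grouped by this likeness after their values were seen. Over the 23 tumors the 15 pairs among them had Pearson correlations of log2 CPM between 0.89 and 0.98 (median 0.95). The median was 0.965 within IP, 0.965 within IT and 0.98 for deviations from group means. These values share libraries and depth and describe these tumors.

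Igtp, a regulatory GTPase of endoplasmic reticulum membranes also known as Irgm3, illustrates the 6. In the IP groups it was at 464 and 974 CPM in CONTROL_IP, 789 and 161 in PTX_IP, 564 and 585 in NCTD_IP, and 663 and 332 in MIX_IP. In the IT groups it was at 98.6, 1106, 384 and 430 CPM in CONTROL_IT, 675, 1027 and 203 in PTX_IT, 650, 396, 481 and 1055 in NCTD_IT, and 225, 833, 66.5 and 751 in MIX_IT. By mean CPM the order was CONTROL_IP (719 ± 361, SD, n = 2), NCTD_IT (646 ± 292, n = 4), PTX_IT (635 ± 414, n = 3), NCTD_IP (574 ± 15.1, n = 2), CONTROL_IT (505 ± 427, n = 4), MIX_IP (497 ± 234, n = 2), PTX_IP (475 ± 444, n = 2) and MIX_IT (469 ± 380, n = 4). Every pair of neighbours in that order overlapped in range. No group stood apart in Igtp.

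The other 5 genes of the 6 were each lowest in 1 of 2 tumors, CONTROL_IT tumor 9 or MIX_IT tumor 23, and differed in their highest tumor. Irgm2, a regulator of Golgi membranes, ranged from 91.6 to 845 CPM, and its annotated gene overlaps that of Igtp on the same strand by 7974 bases, and the part of shared reads in their likeness was not tested. Iigp1, an effector at chromosome 18, 60509099 to 60525706 in GRCm39, ranged from 93.5 to 1192 CPM. Gbp2, Gbp3 and Gbp7, in 1 cluster of chromosome 3, ranged from 59.9 to 911, from 12.7 to 193 and from 63.7 to 586 CPM. The highest tumor was CONTROL_IP tumor 2 for Irgm2, CONTROL_IT tumor 10 for Iigp1 and Gbp2, and NCTD_IT tumor 20 for Gbp3 and Gbp7.

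**Figure D2:**
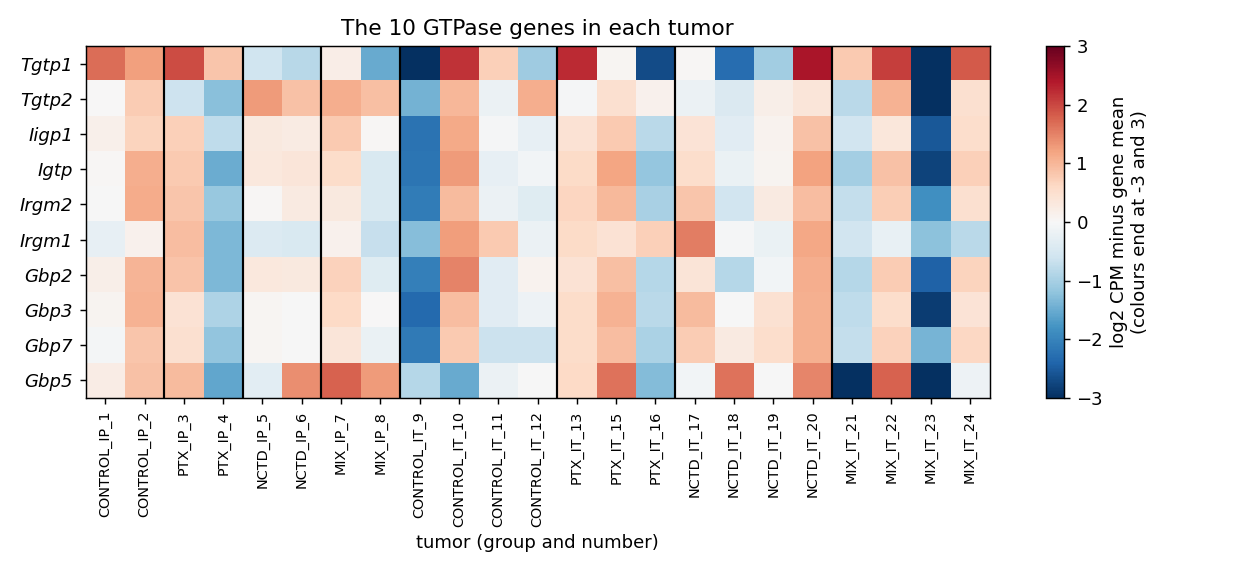
Log2 CPM of each of the 10 members (rows) in each of 23 tumors (columns, black lines between groups), relative to the mean of that gene over all tumors. CONTROL_IT tumor 9 and MIX_IT tumor 23 are blue in nearly every row, while Tgtp1 and Tgtp2 differ in color in the NCTD_IP group.

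Most of the spread lay within groups, as it did for the median of the genes that passed the filter. The share of variance of log2 CPM between the 8 groups was 9.93% for Gbp2, 13.1% for Tgtp1, 13.2% for Igtp and 14.0% for Irgm2, against a median of 34.3% over the genes that passed the filter. The share was 16.1% for Iigp1, 23.9% for Gbp3, 26.7% for Gbp7, 29.3% for Tgtp2 and 34.5% for Gbp5. Irgm1 had the highest share of the 10, at 35.5%. The SD within groups was 2.23 log2 units for Tgtp1, higher than in 99.6% of genes, and 0.80 to 1.56 for the other 9 members, against a median of 0.45.

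The members rose and fell with other interferon targets of both types and with T and NK cell markers from tumor to tumor. The summed level of the other interferon gamma targets had r = 0.97 with the mean of the 6, and that of the type I interferon targets r = 0.94. Among the 5 genes outside the family most like the mean log2 CPM of the 10 members over 23 tumors were H2-Eb1 (r = 0.97), Gzmb (r = 0.97), Axl (r = 0.97) and H2-Aa (r = 0.96). H2-Eb1 and H2-Aa encode chains of MHC class II, Gzmb a granzyme of cytotoxic lymphocytes and Axl a receptor tyrosine kinase. Within routes these 4 correlations were 0.86 to 0.94 in IP (n = 8) and 0.97 to 0.99 in IT (n = 15). Without the 2 tumors farthest from the median they were 0.92 to 0.95. Irf1 had r = 0.81 and Ifng, which encodes interferon gamma, r = 0.76.

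Ifng itself was close to the limit of detection. It was at 0 to 10.8 CPM, where 3 counts correspond to 0.448 to 1.05 CPM in a library. NCTD_IT tumor 20 had 10.8 CPM, and CONTROL_IT tumor 9, NCTD_IT tumor 18 and MIX_IT tumor 21 had 0.

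The summed level of 15 T and NK cell markers had r = 0.94 with the mean of the 6 (0.92 in IP, 0.95 in IT, n = 23 in all). It ran from 4.77 CPM in CONTROL_IT tumor 9 and 12.2 CPM in MIX_IT tumor 23 to 617 CPM in NCTD_IT tumor 20. By group it ranged from 98.8 to 310 CPM in CONTROL_IP, 26.9 to 227 in PTX_IP, 130 to 283 in NCTD_IP and 97.5 to 148 in MIX_IP. In the IT groups it ranged from 4.77 to 339 CPM in CONTROL_IT, 15.8 to 353 in PTX_IT, 73.5 to 617 in NCTD_IT and 12.2 to 283 in MIX_IT. Summed macrophage markers (11 genes) had r = 0.79, fibroblast markers r = -0.18, endothelial markers r = -0.22, neutrophil markers r = 0.02 and melanoma cell markers r = 0.31. B cells were barely represented, with Cd79a and Ms4a1 at 3 counts or fewer in every tumor. The part of these cells in the members' levels was not tested.

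**Figure D3:**
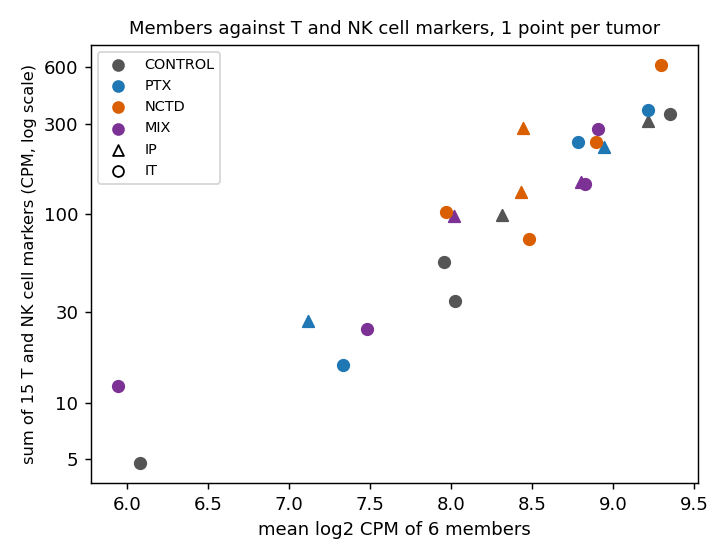
Mean log2 CPM of the 6 (x axis) against the summed CPM of 15 T and NK cell markers (y axis, log scale), 1 point per tumor (triangles IP, circles IT). Points of every drug are spread along the diagonal, from CONTROL_IT tumor 9 and MIX_IT tumor 23 at the lower left to NCTD_IT tumor 20 at the upper right.

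Tgtp1 and Tgtp2 encode near-identical effector GTPases. They followed the 6 less closely than the 6 followed each other, and they differed from each other in IP tumors. Tgtp1 lies at chr11:48876154-48884999 and Tgtp2 at chr11:48948021-48955033, both on the minus strand in GRCm39. Their canonical transcripts shared the last 1040 bases letter for letter, and 100% of the 100-base windows in the last 500 bases of each occurred in the other. For the remaining 8 members that share was 0%, except 14.2% in Irgm2. Reads from the shared end cannot be assigned to 1 of the pair, and how such reads were counted is not given in the sources used here. The split of counts between Tgtp1 and Tgtp2 is therefore uncertain.

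Tgtp1 was lower in IP tumors that received NCTD. It was at 382 and 281 CPM in CONTROL_IP, 463 and 211 in PTX_IP, 78.5 and 66.7 in NCTD_IP, and 136 and 42.0 in MIX_IP. The 4 tumors with NCTD lay below the 4 without it, with a gap from 136 to 211 CPM. This split includes the contrast on which the family was selected, NCTD_IP against CONTROL_IP. Of the 12424 genes tested, 0.974% lay lower without overlap in the same split of tumors. In fitted log2 fold change against CONTROL_IP, Tgtp1 was at -2.19 (SE 0.51) in NCTD_IP, -1.90 (SE 0.51) in MIX_IP and 0.03 (SE 0.49) in PTX_IP.

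Tgtp2 took the opposite order in the same 8 tumors. It was at 29.0 and 48.7 CPM in CONTROL_IP, 18.9 and 12.1 in PTX_IP, 70.6 and 53.1 in NCTD_IP, and 61.9 and 54.4 in MIX_IP. The 4 tumors with NCTD lay above the 4 without it, as did 0.813% of genes tested. No other member separated these tumors. This split was examined after the values were seen and no test was made of it.

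The share of Tgtp1 in the counts of the pair, which does not depend on library scaling, went from 85.2% to 96.1% in the 4 IP tumors without NCTD to 43.6% to 68.7% in the 4 with it. Relative to the mean log2 CPM of the 6 in the same tumor, Tgtp1 was at -2.62 to -1.72 log2 units with NCTD and at -1.08 to 0.61 without it. Both measures use the same Tgtp1 counts, including those that selected the family, and add no separate support. The share also rests on the uncertain split of counts between Tgtp1 and Tgtp2. The summed CPM of the pair does not depend on that split. It was at 96.4 to 198 CPM in the 4 IP tumors with NCTD and at 223 to 482 CPM in the 4 without it. That sum also includes the counts that selected the family. The 6 themselves overlapped between these tumors. Gm12185, which overlaps Tgtp1 by 6900 bases on the same strand, was at 20.01 to 70.04 CPM with NCTD and 17.9 to 110 CPM without it.

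The IT tumors did not divide in this way. Tgtp1 was at 8.28, 535, 197 and 56.9 CPM in CONTROL_IT, 565, 125 and 18.4 in PTX_IT, 123, 24.5, 57.4 and 646 in NCTD_IT, and 205, 503, 5.36 and 428 in MIX_IT. The 8 tumors with NCTD and the 7 without it covered nearly the same range. Tgtp2 was at 10.8, 57.8, 25.4 and 62.0 CPM in CONTROL_IT, 28.1, 40.3 and 31.3 in PTX_IT, 25.4, 21.2, 32.6 and 37.0 in NCTD_IT, and 16.4, 59.8, 0.974 and 40.2 in MIX_IT. The share of Tgtp1 in the pair ran from 36.9% to 95.3% in tumors without NCTD and from 53.6% to 94.6% in tumors with it.

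**Figure D4:**
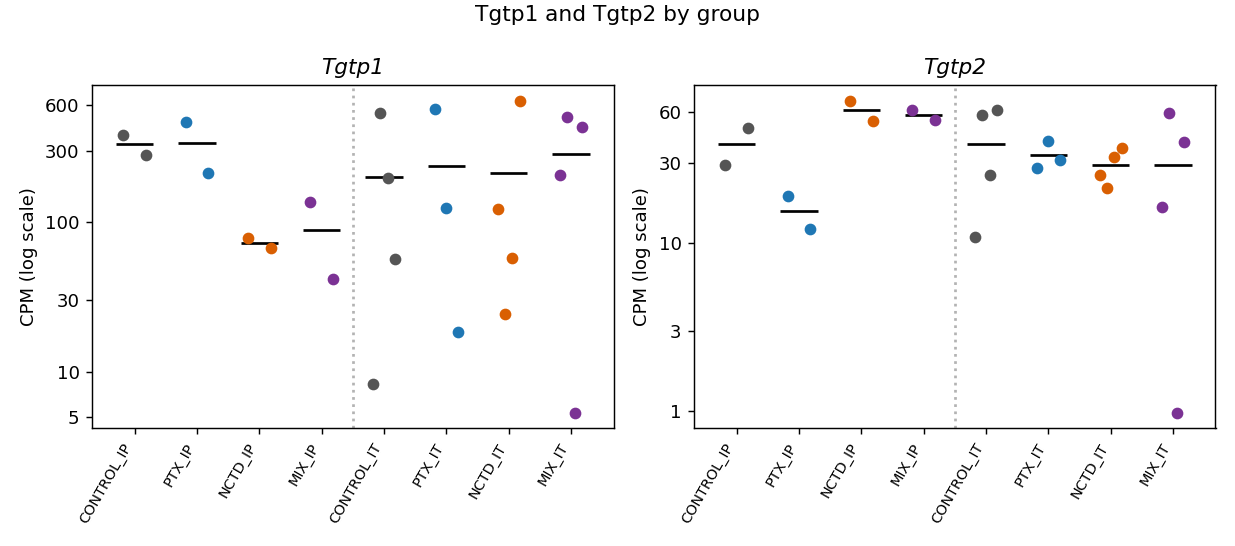
CPM of Tgtp1 (left) and Tgtp2 (right) on log scales in the 8 groups, 1 point per tumor and a bar at the group mean, with IP groups left of the dotted line. In the IP groups the NCTD_IP and MIX_IP points are below the others for Tgtp1 and above them for Tgtp2, while in the IT groups all 4 sets of points overlap.

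Tgtp1 and Tgtp2 had r = 0.49 with each other over the 23 tumors, -0.63 in IP and 0.67 in IT. With the 6, the median r over 23 tumors was 0.762 for Tgtp1 and 0.765 for Tgtp2, above 0.64 for Irgm1 and 0.62 for Gbp5. In IP (n = 8) it was 0.22 for Tgtp1 and 0.516 for Tgtp2. In IT (n = 15) it was 0.85 for Tgtp1 and 0.815 for Tgtp2. The IP values include the tumors on which the family was selected. The genes outside the family most like Tgtp1 were Bace2 (r = 0.84), B2m (r = 0.82), Gpr18 (r = 0.82), Ctso (r = 0.82) and Nrcam (r = 0.81), again over 23 tumors. B2m encodes the light chain of MHC class I, and its r with Tgtp1 was 0.15 in IP and 0.91 in IT. For Bace2 it was 0.57 in IP and 0.92 in IT.

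The tests of drug effect took the contrasts that the choice of members had not used. In these 8 comparisons edgeR's quasi-likelihood test with Benjamini-Hochberg adjustment over all genes called 0 of the 10 members at an adjusted p below 0.05. DESeq2 called 0 in 7 of the 8 and 1 in MIX_IP against PTX_IP.

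NCTD_IT against CONTROL_IT asks what the intratumoral drug did to these genes. Of 12480 genes tested, 1.37% were called (115 higher and 56 lower), and none of the 10 members was among them, nor did any have an unadjusted p below 0.05, as 21.6% of all genes did. Fitted values were above control for 9 of 10 members, with a median log2 fold change of 0.37, against 0.03 over all genes tested. That median was 0.05 without CONTROL_IT tumor 9, 1.12 without CONTROL_IT tumor 10 and 0.14 without NCTD_IT tumor 20. The value was highest for Gbp5 (1.60, SE 1.10, adjusted p = 0.41) and for Gbp7 (0.99, SE 0.54, adjusted p = 0.30) in edgeR's quasi-likelihood test. Tgtp1 was at 0.10 (SE 1.22, adjusted p = 0.97 by edgeR), and at -1.54 without NCTD_IT tumor 20. Without the filter on low counts edgeR called Gbp7 and Gbp3 higher, with 4.43% of genes called. That fit gave Tgtp1 an SE of 0.22 in place of 1.22. The range of every member overlapped between the groups, as it did not in 16.7% of all genes.

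PTX_IT against CONTROL_IT called 0.0% of genes, 0 members, and 0 members at an unadjusted p below 0.05 by edgeR, beside 6.35% of all genes. Member values ran from -0.23 (Tgtp2) to 1.37 (Gbp5), with a median of 0.29 on the log2 scale, which was -0.07 without CONTROL_IT tumor 9, 1.08 without CONTROL_IT tumor 10, 0.77 without PTX_IT tumor 16 and 0.11 without PTX_IT tumor 15. NCTD_IT and PTX_IT themselves differed by a median of 0.05 over the members, with 0.0% of genes called and no member at an unadjusted p below 0.05, beside 3.87% of all genes. That median was -0.27 without PTX_IT tumor 16 and 0.40 without PTX_IT tumor 15. The SE of the members in both comparisons was 0.51 to 1.31, so that a difference of 1 log2 unit was below 2 SE for each. No member separated the groups in either, as 8.05% and 4.36% of all genes did.

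MIX_IT against CONTROL_IT also called 0.0% of genes and 0 members. The median of the members was -0.12, with 4 above control and 6 below it, and no member separated the groups, as 9.96% of all genes did. That median was -0.45 without CONTROL_IT tumor 9 and -0.50 without MIX_IT tumor 22, and it turned to 0.55 without CONTROL_IT tumor 10 and to 0.25 without MIX_IT tumor 23. Irgm1, the regulator needed for resistance to many intracellular pathogens, was the 1 member of 10 with an unadjusted p below 0.05, beside 13% of all genes. Its log2 fold change was -1.11 (SE 0.48, adjusted p = 0.34 by edgeR).

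Irgm1 also led the comparisons of the combination with each drug. It was at 4.27, 25.3, 18.3 and 9.35 CPM in CONTROL_IT, 15.6, 14.3 and 17.3 in PTX_IT, 31.0, 10.3, 9.10 and 23.6 in NCTD_IT, and 7.04, 9.001, 4.38 and 5.98 in MIX_IT. All 4 MIX_IT tumors lay below all NCTD_IT and PTX_IT tumors, while CONTROL_IT tumor 9 lay below all 4 MIX_IT tumors. MIX_IT against NCTD_IT gave -1.50 (SE 0.48, adjusted p = 0.80 by edgeR), with 0.00801% of genes called and 2.97% not overlapping. Without the filter Irgm1 and Gbp3 were called lower there, with 0.707% of genes called. MIX_IT against PTX_IT gave -1.26 (SE 0.51, adjusted p = 0.98 by edgeR), with 0.0% called and 4.21% not overlapping. In IP, Irgm1 was at 6.48 to 11.6 CPM in MIX_IP and 4.09 to 20.1 CPM in PTX_IP, which overlapped.

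The members, Irgm1 included, were mostly lower in MIX_IT than in the single drugs without passing the test. Against NCTD_IT 8 of 10 were lower (median -0.51), and against PTX_IT 9 of 10 (median -0.45). Most members rose and fell together, so these counts of direction are not separate evidence for each gene. The first median was -0.18 without MIX_IT tumor 23 and -0.88 without MIX_IT tumor 22, and the other -0.10 without MIX_IT tumor 23, -0.03 without PTX_IT tumor 15 and -0.82 without PTX_IT tumor 16. The departure of MIX_IT from the sum of the PTX_IT and NCTD_IT changes had a median of -0.89 over the members, against -0.01 over all genes. That median was -0.51 without PTX_IT tumor 15, -0.56 without CONTROL_IT tumor 9 or without MIX_IT tumor 23, and -1.57 without CONTROL_IT tumor 10. The departure was -1.64 for Irgm1 (SE 0.69, adjusted p = 0.42 by edgeR), the 1 member at an unadjusted p below 0.05 beside 11.3% of all genes, and 0.0401% of genes were called. Without the filter Gbp7 and Gbp3 were called lower, with 1.65% of genes called. With Xist as a covariate the median of the members turned to -1.26 in NCTD_IT and -1.18 in PTX_IT against control. It was 0.57 in MIX_IT against control and 3.10 for the departure. Xist divided PTX_IT and NCTD_IT from the other IT groups, so these values cannot be read as drug effects adjusted for sex.

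MIX_IP against PTX_IP asks what NCTD added to PTX by the intraperitoneal route, in samples that did not choose the family. The spread was estimated from all 8 IP tumors, including the CONTROL_IP and NCTD_IP tumors that chose the family. The SE and p-values are therefore not fully separate from that choice. edgeR called 0.0% of genes and 0 members, and 2 of 10 members had an unadjusted p below 0.05, beside 4.94% of all genes. Tgtp2 had a log2 fold change of 1.89 (SE 0.32, adjusted p = 0.80 by edgeR), and Tgtp1 of -1.93 (SE 0.51, adjusted p = 0.94 by edgeR). DESeq2 called Tgtp2 (log2 fold change 1.89, SE 0.36, adjusted p = 0.000993) among 0.0402% of genes called, while Tgtp1 was at -1.93 (SE 0.68, DESeq2 adjusted p = 0.9999). Groups of 2 tumors did not overlap in Tgtp1, Tgtp2 and Gbp5, as in 33.1% of all genes. Without the filter edgeR called both Tgtp1 and Tgtp2, with 0.452% of genes called. With the counts of Tgtp1 and Tgtp2 summed, the log2 fold change was -1.26 (SE 0.40, adjusted p = 0.94 by edgeR). The median of the 10 members was 0.16, and it was 1.26 without PTX_IP tumor 3, -0.49 without PTX_IP tumor 4, -0.32 without MIX_IP tumor 7 and 0.51 without MIX_IP tumor 8.

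**Figure D5:**
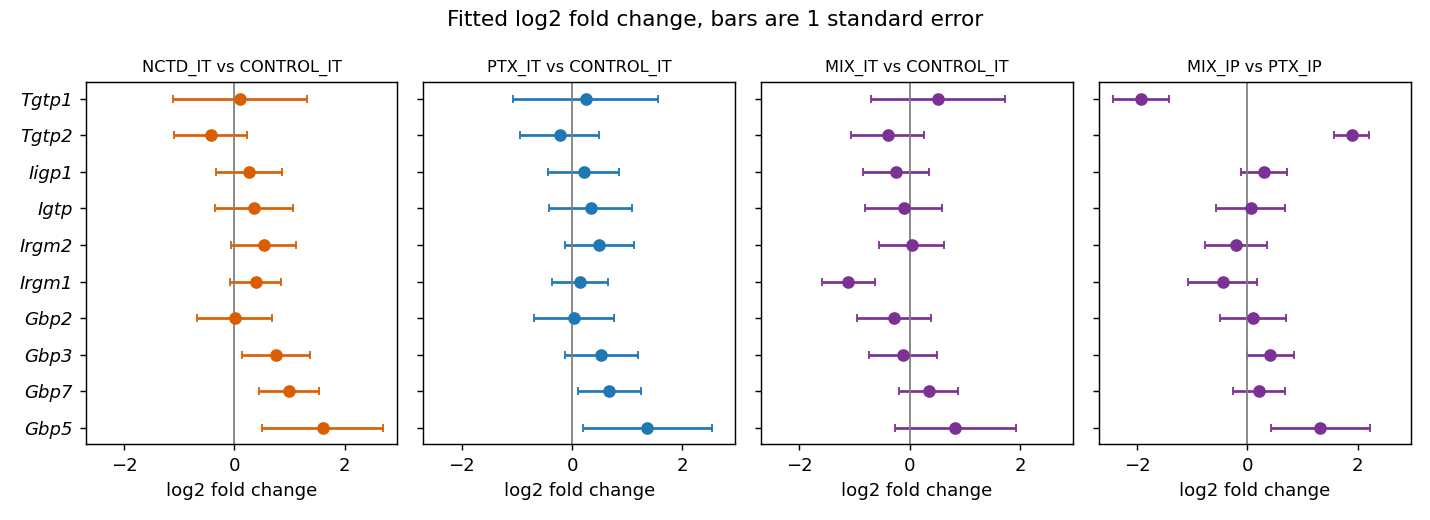
Fitted log2 fold change of the 10 members in 4 comparisons, with bars of 1 standard error. Most bars cross 0. In the right panel Tgtp1 (-1.93) and Tgtp2 (1.89) lie on opposite sides, and Irgm1 (-1.11) lies below 0 in MIX_IT.

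Against CONTROL_IP the remaining members had smaller differences than Tgtp1 in NCTD_IP and MIX_IP. The median over the 10 was -0.39 in NCTD_IP, -0.49 in PTX_IP and -0.34 in MIX_IP, and these 3 contrasts share the same control tumors. Groups did not overlap for 4 members in NCTD_IP (Tgtp1, Tgtp2, Irgm1 and Gbp3), 1 in PTX_IP (Tgtp2) and 3 in MIX_IP (Tgtp1, Tgtp2 and Gbp5), beside 34.0%, 32.0% and 35.8% of all genes. The PTX_IP median was -1.66 without PTX_IP tumor 3 and 0.20 without PTX_IP tumor 4. Without CONTROL_IP tumor 2 the medians were 0.12 in NCTD_IP, -0.01 in PTX_IP and 0.13 in MIX_IP.

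Gbp5, which promotes inflammasome assembly, had the fewest reads of the 10, 230 counts over 23 tumors. It was at 0 in MIX_IT tumors 21 and 23, where 3 counts would be 0.634 and 0.727 CPM, and at most 5.28 CPM elsewhere. Its median r with the 6 was 0.62, and that of Irgm1 was 0.64.

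Other genes of the pathway, taken from lists, also gave 0 calls. Over all genes edgeR called 1.37% in NCTD_IT against CONTROL_IT and at most 0.0401% in each other comparison. An unadjusted p below 0.05 by edgeR was found for 3.75% to 21.6% of all genes, by comparison. The summed lists rose and fell with the 6 in the same few tumors. Counts of direction in these lists therefore describe those tumors and are not separate evidence for each gene. Fits without each tumor were not made for these lists. Of 22 other interferon-inducible GTPases, 0 were called in either direction in any of the 8 comparisons, and 0 had an unadjusted p below 0.05. In NCTD_IT against CONTROL_IT 15 of the 18 tested were higher (median 0.74), led by Gbp9 (1.10, SE 0.60, adjusted p = 0.30 by edgeR) and Gm4841 (1.60, SE 0.89, adjusted p = 0.31 by edgeR). In MIX_IP against PTX_IP 14 of 18 were higher (median 0.10). Their summed level had r = 0.99 with the mean of the 6 over 23 tumors.

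Among 27 interferon ligands, receptors and signal transducers, 22 were tested in each comparison and 0 were called. An unadjusted p below 0.05 by edgeR was found for 5 of the 22 in NCTD_IT against CONTROL_IT, beside 21.6% of all genes. In NCTD_IT against CONTROL_IT 20 were higher (median 0.44), led by Irf2, a repressor of IRF1 targets (1.11, SE 0.29, adjusted p = 0.058 by edgeR), and by Ifngr1, a chain of the interferon gamma receptor (1.39, SE 0.39, adjusted p = 0.064 by edgeR). Irf1 was at 1.12 (SE 0.51, adjusted p = 0.21 by edgeR) and Ifng at 1.25 (SE 1.25, adjusted p = 0.59 by edgeR). In MIX_IT against NCTD_IT all 22 were lower (median -0.42), with Irf2 at -1.01 (SE 0.29, adjusted p = 0.80 by edgeR).

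Of 28 other interferon gamma targets, 27 were above control in NCTD_IT (median 0.69) and in PTX_IT (median 0.52), 16 in MIX_IT (median 0.16), and 0 were called. An unadjusted p below 0.05 by edgeR was found for 3 in NCTD_IT, 1 in PTX_IT and 0 in MIX_IT. Over all genes the shares were 21.6%, 6.35% and 13%. Serpina3g, a serine protease inhibitor, had values of 1.71 in NCTD_IT (SE 0.74, adjusted p = 0.19 by edgeR) and 1.85 in PTX_IT (SE 0.78, adjusted p = 0.79 by edgeR). Of 26 type I interferon targets, 18 were above control in NCTD_IT (median 0.25) and 6 were in MIX_IT (median -0.39), with 0 called. Oas2, an antiviral 2′-5′ oligoadenylate synthetase, was at -1.50 in MIX_IT against NCTD_IT (SE 0.59, adjusted p = 0.80 by edgeR).

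Markers of other cells also had fitted differences between the same IT groups, and most of these markers were not called. Of all genes edgeR called 1.37% in NCTD_IT against CONTROL_IT and 0.0% in MIX_IT against CONTROL_IT and MIX_IP against PTX_IP. Xist and Ddx3y divided NCTD_IT from CONTROL_IT as well, so sex-linked differences and the drug cannot be told apart there. In NCTD_IT against CONTROL_IT the 14 tested T and NK cell markers were all higher (median 1.79, 0 called), as were 10 of 11 macrophage markers (median 1.53, 0 called). Without NCTD_IT tumor 20 these medians were 0.58 and 0.97, and without CONTROL_IT tumor 10 they were 3.15 and 1.81. Of 3 tested neutrophil markers S100a8 and S100a9 were called higher (5.63 and 6.65, adjusted p = 0.036 for both by edgeR), as was Emcn of 6 endothelial markers (1.29, adjusted p = 0.041 by edgeR), and Mitf of 7 melanoma cell markers was called lower (-0.86, adjusted p = 0.036 by edgeR). Summed neutrophil markers were at 1096 CPM in NCTD_IT tumor 18 and at 17.6 to 46.9 CPM in the other 3 tumors of the group, against 2.27 to 8.79 CPM in CONTROL_IT. Without tumor 18, an alternative chosen after seeing the data, S100a8 was at 2.56 (adjusted p = 0.11 by edgeR) and S100a9 at 2.77 (adjusted p = 0.13 by edgeR). Of the 8 fits that each leave out 1 tumor, S100a8, S100a9 and Mitf were called in 2 each and Emcn in 1. Fibroblast markers were higher in MIX_IT than in CONTROL_IT (5 of 5 tested, median 3.52, 0 called). They summed to 8566 CPM in MIX_IT tumor 23 and to 483 to 1859 CPM in the other 3, against 103 to 361 CPM in CONTROL_IT, and without tumor 23 their median was 2.10. In MIX_IP against PTX_IP keratinocyte markers were lower (3 of 3 tested, median -6.06, 0 called) and summed to 118 CPM in PTX_IP tumor 3 and 0 CPM in PTX_IP tumor 4. The part of these cells in the values of the GTPases was not tested.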

How the data were processed

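RNA from 23 B16-F1 tumors was sequenced by the authors as 3′ mRNA libraries, trimmed with Trimmomatic, checked with FastQC and aligned with STAR 2.7.11b to GRCm39. The deposited table holds raw counts per gene, with 2861578 to 6702374 per tumor. The paper names STAR for the gene counts as well. How strand and reads with several matches were counted is not given in the sources used here. Each gene's low counts limit its precision, and a floor of 3 counts covers counting error only.

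The 10 members, the gene lists and the tests were chosen with earlier results of these data known. Groups came from the labels, and each column was matched to its label. The labels do not state that tumors of a group came from separate mice. The paper describes cells placed in the right flank of every mouse and does not link libraries to mice. The p-values measure only the spread between these tumors, which may be technical in part. Counts were fitted in R 4.3.3 with edgeR 4.0.16 (TMM scaling, filterByExpr with a minimum count of 10 and total of 15, quasi-likelihood F test), 1 model per route, over 12480 genes in IT and 12424 in IP, with Benjamini-Hochberg adjustment over all genes and a threshold of 0.05. For log2 CPM, 0.50 counts were added. Where a group was at 0 in every tumor no fold was given, but the direction was counted. DESeq2 1.42.0, other scaling, no filter, fits of only the groups compared, an Xist covariate, summed Tgtp1 and Tgtp2 counts and leaving out each tumor were alternatives. The scripts were checked on simulated counts. Named were all members, the 3 genes of each list with the smallest p, of which the text gives examples, and the 5 genes outside the family most correlated with Tgtp1 or with the mean of the members. Markers of other cells are otherwise given as sums or counts. Some items of these lists are not reported here.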

Additional observations from a re-analysis of the deposited data

Results flagged for a closer look

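Tgtp1 in NCTD_IT tumor 20 was at 646.4 CPM, far above the other 3 tumors of its group, which were at 24.5 to 123 CPM. Its gap to the nearest tumor in CPM, as a share of the range of the group, passed Dixon's limit for 4 samples. In log2 CPM the 4 tumors were at 6.94, 4.62, 5.85 and 9.34, where the gap was a smaller share of the range. Tgtp1 also reached 535 CPM in CONTROL_IT tumor 10 and 565 CPM in PTX_IT tumor 13. Of 30 groups of values examined in this way 1 passed, and chance passes about 1 in 20. The same tumor had the highest summed T and NK cell markers of all 23, at 617 CPM, and the part of those cells in the value was not tested.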

How the results depend on the processing

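Calls depended on the filter and the tool. Without a filter on low counts edgeR called 2 members in each of NCTD_IT against CONTROL_IT (Gbp7 and Gbp3), MIX_IT against NCTD_IT (Gbp3 and Irgm1), the departure of MIX_IT from the sum (Gbp7 and Gbp3) and MIX_IP against PTX_IP (Tgtp1, at -1.95, and Tgtp2). Over all genes these fits called 1190, 190, 443 and 107, against 171, 1, 5 and 0 with the filter. Fold changes hardly moved while the SE fell. Tgtp1 in NCTD_IT against CONTROL_IT was at 0.10 (SE 1.22) with the filter and 0.09 (SE 0.22) without it. The calls without the filter thus rest on a smaller fitted spread between tumors, and the cause was not tested. DESeq2 called 1 member, Tgtp2, in MIX_IP against PTX_IP. With Xist as a covariate the median of the members was -1.26 in NCTD_IT and -1.18 in PTX_IT against CONTROL_IT. It was 1.85 in MIX_IT against NCTD_IT, 1.96 against PTX_IT and 3.10 for the departure, with 0 members called. Tgtp1 reversed to -5.39 (SE 3.86) in NCTD_IT and -4.91 (SE 3.67) in PTX_IT against CONTROL_IT. Its SE without the covariate was 1.22 and 1.31. Xist divided PTX_IT and NCTD_IT from CONTROL_IT and MIX_IT. Across that division this fit cannot separate sex-linked differences from the drug. The cause of these shifts was not tested.

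Leaving out 1 tumor at a time kept the number of members called at 0 to 0 in all 8 comparisons. The median of the members ran from 0.05 to 1.12 in NCTD_IT, -0.07 to 1.08 in PTX_IT and -0.50 to 0.55 in MIX_IT against CONTROL_IT. It ran from -0.27 to 0.40 for NCTD_IT against PTX_IT, -0.88 to -0.18 for MIX_IT against NCTD_IT, -0.82 to -0.03 for MIX_IT against PTX_IT and -1.57 to -0.51 for the departure. In IP it ran from -0.49 to 1.26 for MIX_IP against PTX_IP, and against CONTROL_IP from -0.75 to 0.12 in NCTD_IP, -1.66 to 0.20 in PTX_IP and -0.73 to 0.13 in MIX_IP. Tgtp1 ran from -1.54 to 1.30 in NCTD_IT, -1.48 to 1.44 in PTX_IT and 0.10 to 1.71 in MIX_IT against CONTROL_IT, -1.79 to 1.58 for NCTD_IT against PTX_IT, -0.005 to 2.05 for MIX_IT against NCTD_IT, -0.28 to 1.98 for MIX_IT against PTX_IT, -1.03 to 1.89 for the departure and -3.01 to -1.26 for MIX_IP against PTX_IP.

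No paired analysis was possible because every tumor carries its own number and the groups share none. Groups of 2 to 4 tumors and the spread between tumors limit all tests of these genes, and the shared 3′ end limits the split of Tgtp1 from Tgtp2.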
